A study of Mus musculus with 2 samples.

Results

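The genes described here encode 9 apolipoproteins, Apoa1, Apoa2, Apoa4, Apoa5, Apob, Apoc1, Apoc3, Apoe and Apom, and Mttp, the enzyme that loads Apob with lipid. They were chosen by gene symbol as a known group, and 10 of 10 were found among the 32285 genes of the count matrix. In the deeply sequenced hepatocyte-like cells they made up 7.05% of all counted RNA molecules in library 1 and 7.58% in library 2. Apoa4 was the member that differed most between the libraries, at 138 and 400.4 UMIs (counted molecules) per 1000000. In Kupffer-like cells, members were set against T-like and B-like cells, per UMI of hepatocyte marker genes. Apoe stood highest, at 2.40 times in library 1 and 1.64 times in library 2, and Apoc1 was at 1.43 and 1.29 times.

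Apolipoproteins are the protein part of the particles that carry fat and cholesterol in blood. In the hepatocyte, the microsomal triglyceride transfer protein (Mttp) adds lipid to Apob as it enters the endoplasmic reticulum, and the particle leaves the cell as very low density lipoprotein. Apoa1 and Apoa2 are the main proteins of high density lipoprotein, Apoc proteins regulate the lipases that act on the particles, and Apoe binds the receptors that clear them. The liver makes most of these proteins, and Apoe is also made by macrophages.

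The study examined what loss of the transcription factor CEBPA in hepatocytes does to liver cells. The labels give 1 liver sample of genotype Cebp KO and 1 of genotype Cebp WT, both from mice fed a steatohepatitis-promoting diet (HFCFD, 40% per the labels; high in fat, cholesterol and fructose) for 2 weeks. Per the study's methods, floxed Cebpa mice were bred to Cre lines driven by the albumin promoter, which is active in hepatocytes, and the mice were males. The age of the animals behind these samples, and which of the study's Cre lines they carried, were not found in the sources used here. Cells from perfused and digested livers were purified on Percoll and loaded on 1 lane of the 10x Genomics 3' assay per sample.

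The deposited matrix joins both samples, and each barcode ends in 1 or 2. The labels do not say which suffix belongs to which sample. The libraries are therefore called library 1 and library 2 after their suffix, neither is assigned to a genotype, and the comparisons below are between a pair of libraries and not between conditions. Cebpa itself was at 1.23 UMIs per 1000000 (CPM) in deep hepatocyte-like cells of library 1 and at 109 CPM in library 2. A UMI is a tag that marks 1 captured molecule, and CPM is the UMIs of a gene per 1000000 UMIs of the same cells. With 1 library each there is no replicate and no test: the 95% intervals given are exact and cover counting error only.

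After filters, 11617 cells of library 1 and 6088 of library 2 remained, with a median of 1424 and 2310 UMIs. Cells were named "-like" from marker lists. Hepatocyte-like cells numbered 9107 and 3729, and those with at least 5000 UMIs are called deep (636 and 508 cells, median 24424 and 13072 UMIs). Of 12 hepatocyte markers, 11 were higher in deep cells than in T-like and B-like cells; Cyp2e1, a pericentral marker, was not. In deep cells the summed level of the 10 Kupffer or macrophage markers was 63.0 and 87.0 CPM, against 18480 and 19413 CPM in the Kupffer-like cells. The median mitochondrial share was 15.9% and 15.4% in deep cells, against 1.63% and 3.37% in hepatocyte-like cells below 5000 UMIs. In all, 81 barcode sequences occurred under both suffixes, and 67 and 39 kept cells carried one.

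Some of the members lie in 2 gene clusters. On mm10, Apoa1 (chr9:46228580-46230466, plus strand), Apoc3 (chr9:46232933-46235636, minus strand), Apoa4 (chr9:46240696-46243459, plus strand) and Apoa5 (chr9:46268633-46271919, plus strand) follow each other, with 2466, 5059 and 25173 bases between neighbours. Apoc1 (chr7:19689481-19692660) and Apoe (chr7:19696109-19699188) are both on the minus strand with 3448 bases between them. Apoa2 lies at chr1:171225054-171226379 (plus), Apob at chr12:7977648-8016835 (plus), Apom at chr17:35128997-35132050 (minus) and Mttp at chr3:138089854-138144968 (minus). Apoa4, Apoa5 and Mttp overlap antisense genes, so reads there rest on the strand setting of the counting.

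Promoter sequence from RefSeq (GRCm38.p6) was at hand for 8 members, as windows of 250 bases before to 50 bases after the start; none was read for Apoc1 and Apoc3. The part upstream of both the RefSeq and the GENCODE start is printed for Apoa4, which differed most between the libraries, for Apoe, which stood out in Kupffer-like cells, and for Apob, whose window held a C/EBP core. Letters of the searched motifs are in capitals.
Apoa4 (chr9:46240594-46240695, plus strand): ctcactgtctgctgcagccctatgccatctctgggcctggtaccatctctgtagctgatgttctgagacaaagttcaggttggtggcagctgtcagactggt
Apoe (chr7:19699189-19699438, minus strand): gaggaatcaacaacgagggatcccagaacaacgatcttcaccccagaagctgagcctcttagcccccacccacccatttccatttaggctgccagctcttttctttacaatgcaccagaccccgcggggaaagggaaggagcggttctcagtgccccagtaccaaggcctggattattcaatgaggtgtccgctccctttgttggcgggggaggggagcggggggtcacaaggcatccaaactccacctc
Apob (chr12:7977427-7977647, plus strand): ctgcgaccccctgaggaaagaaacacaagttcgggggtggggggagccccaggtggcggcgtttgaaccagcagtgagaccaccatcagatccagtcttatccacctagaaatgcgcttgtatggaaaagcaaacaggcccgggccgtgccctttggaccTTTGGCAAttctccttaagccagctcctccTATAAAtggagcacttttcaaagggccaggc

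The motifs were searched on both strands of the whole windows: the C/EBP core TTGCNNAA (in 10.8% of all 32851 promoter windows), the TATA box TATAAA (13.6%), the CCAAT box CCAAT (37.4%), the HNF4 core CAAAGTCCA (0.475%) and the E-box CACGTG (7.15%). The Apob window held a C/EBP core on the minus strand and a TATA box, at -90 and -60 from the RefSeq start. Apoa5 windows held an E-box and a TATA box, the Apoa2 window at the GENCODE start held a TATA box and a CCAAT box, and a second Apoa2 start held C/EBP cores. None of the 5 motifs was in the windows of Apoa1, Apoa4, Apom and Mttp or in that at the GENCODE start of Apoe. The RefSeq start lay inside the GENCODE gene by 1550 bases for Mttp, 249 for Apom, 148 for Apoa4 and 50 for Apoa1. These windows therefore hold less or none of the sequence upstream of the GENCODE start. These are matches of letters in a window and say nothing of binding.

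In deep hepatocyte-like cells the members spanned more than 2 orders of magnitude in CPM. The assay tags the 3' end of each molecule, so a UMI count does not grow with transcript length and no length scaling was made; levels of different genes still share the capture of each 3' end. Among the proteins of high density lipoprotein, Apoa2 was at 23320 CPM (95% interval 23242 to 23398) in library 1 and 18561 CPM (18465 to 18657) in library 2. Apoa1 was at 5893 CPM (5854 to 5933) and 5442 CPM (5390 to 5494). Apom, which carries sphingosine 1-phosphate on these particles, was at 256 CPM (248 to 264) and 249 CPM (238 to 261).

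Of the small exchangeable apolipoproteins, Apoc1, an inhibitor of lipid transfer and particle uptake, was at 19612 CPM (19540 to 19683) in library 1 and 19902 CPM (19803 to 20002) in library 2. Apoc3, an inhibitor of lipoprotein lipase, was at 6234 CPM (6193 to 6274) and 9597 CPM (9528 to 9666). Apoe was at 11723 CPM (11668 to 11779) and 18609 CPM (18513 to 18706). These genes and Apoa2 ranked between 6 and 20 among the 32285 genes by UMIs in both libraries. Apoa5, which promotes triglyceride clearance, was at 890 CPM (875 to 905) and 1012 CPM (990 to 1035). Apoa4, an apolipoprotein best known from chylomicrons of the intestine and induced in fatty liver, was at 138 CPM (132 to 144) and 400.4 CPM (386 to 415), or rank 838 and 319.

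For the assembly step, Apob was at 2309 CPM (2285 to 2334) in library 1 and 1940 CPM (1910 to 1972) in library 2. Mttp was at 104 CPM (99.1 to 110) and 96.3 CPM (89.5 to 103). Thus Apob UMIs were present in 98.4% and 98.6% of deep cells and Mttp UMIs in 74.4% and 64.4%. Both libraries had the same member at the bottom of the order, Mttp, and Apoa4 and Apom next to it, with Apoa4 below Apom in library 1 and above it in library 2.

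Levels moved with depth. From 500 to 1000 UMIs up to 20000 UMIs and over, Apoe went from 25346 to 12247 CPM in library 1 and from 39714 to 17277 CPM in library 2. Apoa2 went from 35257 to 23895 CPM and from 36518 to 17997 CPM. Apob was lowest in the middle: 2190, 953 and 2442 CPM in the bins that start at 500, 2000 and 20000 UMIs in library 1, and 2217, 1165 and 2254 CPM in library 2. Mttp had the same shape, with 82.9, 42.2 and 107 CPM in library 1 and 101.3, 61.0 and 103 CPM in library 2. Shallow barcodes were close to T-like and B-like cells in make-up. Per UMI of the hepatocyte markers, Apoe between 500 and 1000 UMIs was at 0.9997 and 0.926 times its level in those cells. The shallow levels can therefore not be told from RNA that comes from outside the cell, and its part in the moves with depth was not tested.

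**Figure D1:**
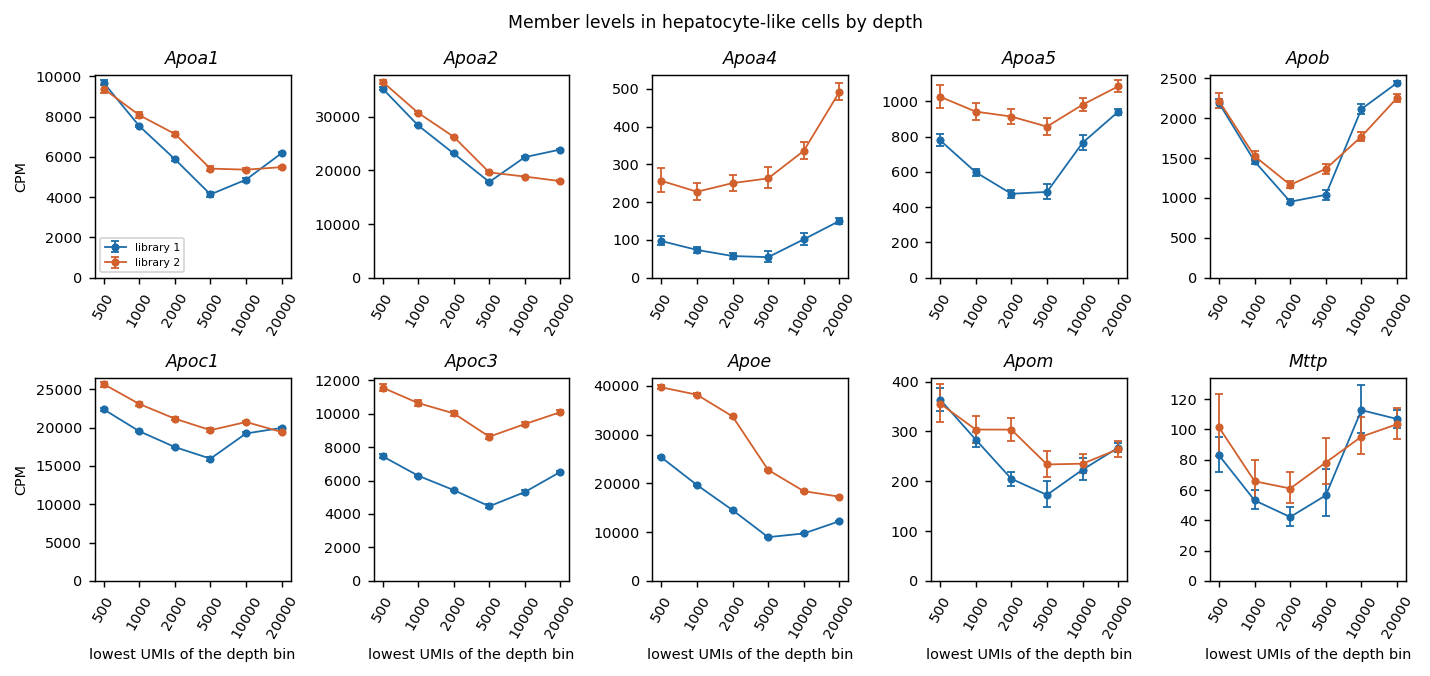
CPM of each member (vertical axis, linear, from 0) in hepatocyte-like cells by the lowest UMI count of 6 depth bins (horizontal axis); points are sums over cells, bars are 95% counting intervals, and colours are the libraries. Apoa4, Apoc3 and Apoe of library 2 lie above library 1 in each bin, Apoe is highest in the shallowest bin of both libraries, and Apob and Mttp have their lowest points in the middle bins.

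Depth also went with the share of mitochondrial UMIs, and this differed between the libraries. In the bin of 5000 to 10000 UMIs the median mitochondrial share was 1.12% in library 1 (151 cells) and 8.63% in library 2 (191 cells), while at 20000 UMIs and over it was 17.0% and 16.4% (368 and 143 cells). Library 1 had its lowest Apoe (8978 CPM), Apoc1 (15954 CPM) and Apoa4 (54.5 CPM) in the bin of 5000 to 10000 UMIs. The part of the mitochondrial share in these levels was not tested.

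Single deep cells differed in the level of the members. In library 1 the middle 50% of cells spanned 6528 to 13787 CPM for Apoe, and in library 2 they spanned 12646 to 26074 CPM. The lowest, median and highest deep cell had 2266, 9963 and 34838 CPM of Apoe in library 1 and 5007, 17473 and 49090 CPM in library 2, so the ranges overlap widely. For Apoa4 the median cell had 77.3 CPM in library 1 and 233 CPM in library 2, with no Apoa4 UMI in 29.2% and 15.7% of deep cells. Apoc1 was the most even of the abundant members, with quartiles 1.64-fold apart in library 1 and 1.41-fold apart in library 2.

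To compare spread at 1 depth, deep cells were thinned to 5000 UMIs. The ratio of variance to mean, 1 for pure counting, was 18.2 for Apoa2 and 12.7 for Apoe in library 1 and 10.1 and 23.2 in library 2. It was 1.93 and 3.36 for Apoa4 and 1.06 and 1.17 for Mttp. Over the genes of at least 100 CPM its median was 1.27 and 1.22. Apoe exceeded 98.0% and 99.1% of those genes, while Mttp exceeded 9.99% and 39.9%. The ratio can grow with the level of a gene, and genes were not matched for level, so the part of level in these ranks was not tested.

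Between the libraries, Apoa4 was the member past a 2-fold difference of CPM in deep cells, at 2.90 times (95% interval 2.74 to 3.07) in library 2 over library 1. That is 1 of 10 members, against 5.74% of the 1238 genes that reached 100 CPM in 1 or both libraries (2.83% higher in library 2 and 2.91% higher in library 1). At 1.5-fold, 3 of 10 members passed, against 14.3% of genes, and those were higher in library 2, a direction that 7.27% of genes took. They were Apoa4, Apoe at 1.59 times (1.58 to 1.60) and Apoc3 at 1.54 times (1.52 to 1.55). No member was 1.5-fold higher in library 1, where 7.03% of genes were. Among deep cells of at most 10% mitochondrial UMIs (154 and 160 cells), Apoc3 and Apoe also passed 2-fold. Other settings ended their 1.5-fold calls: Apoc3 was at 1.30 times without a mitochondrial limit, and Apoe was at 1.43 times per UMI of the hepatocyte markers. The log2 ratio of library 1 to library 2 was also short of 1.5-fold for Apoc3 per marker UMI, at -0.47, and for Apoe in cells of at least 10000 UMIs, at -0.57. With 10 members, 1 to 3 genes are a small count to set against these shares.

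The remaining members differed less. Apoa5 was at 1.14 times (1.11 to 1.17), Apoc1 at 1.01 times (1.01 to 1.02), Apom at 0.976 times (0.923 to 1.03) and Mttp at 0.924 times (0.845 to 1.01) in library 2 over library 1. For Apom and Mttp the interval includes 1. Apoa1 was at 0.923 times (0.913 to 0.934), Apob at 0.840 times (0.824 to 0.857) and Apoa2 at 0.796 times (0.791 to 0.801). The median absolute log2 ratio was 0.22 over the members and 0.23 over the genes tested.

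Within depth bins, Apoa4 stayed between 2.64 and 4.83 times higher in library 2, and Apoc3 between 1.55 and 1.93 times. Apoe was 1.41 times higher at 20000 UMIs and over and 2.54 times higher between 5000 and 10000 UMIs, so the size of its difference moved with depth. Apoa5 was 1.153 times higher at 20000 UMIs and over and 1.92 times higher between 2000 and 5000 UMIs. Apoa1, Apoa2, Apob and Apoc1 changed side with depth, with intervals that exclude 1 on both sides. Apoa2 was at 1.13 times between 2000 and 5000 UMIs and 0.753 times at 20000 UMIs and over. Apob was at 1.31 times between 5000 and 10000 UMIs and 0.837 times between 10000 and 20000 UMIs. Between 5000 and 10000 UMIs Apoa1 was at 1.31 and Apoc1 at 1.23 times, and at 20000 UMIs and over they were at 0.888 and 0.973 times. The direction of these 4 members therefore rests on which depths are summed. For Apom and Mttp every ratio below 1 had an interval that includes 1. In T-like and B-like cells, where hepatocyte RNA is read as coming from outside, the ratios were 2.702 for Apoa4 (2.13 to 3.45), 1.46 for Apoc3 (1.41 to 1.52) and 1.73 for Apoe (1.70 to 1.75).

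**Figure D2:**
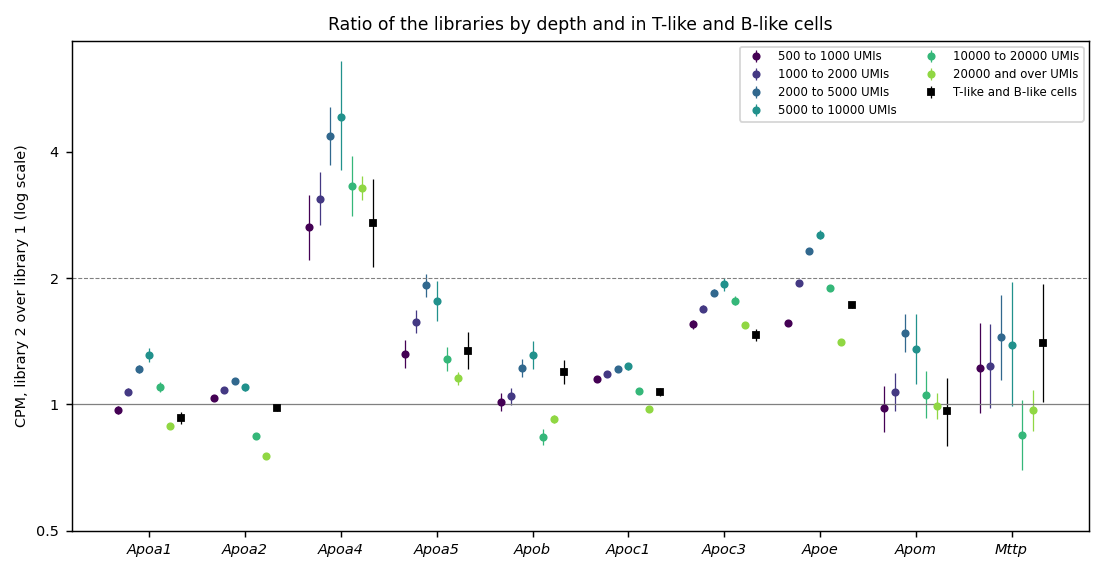
CPM of each member in library 2 over library 1 (vertical axis, log scale) for 6 depth bins of hepatocyte-like cells (circles) and for T-like and B-like cells (black squares), with 95% counting intervals; the dashed line marks 2-fold. Apoa4 lies above 2-fold in each set, Apoc3 between 1.46 and 1.93, and Apoe between 1.41 and 2.54.

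Of 54 related genes listed for this work, 26 reached 100 CPM in deep cells of either library. Past 1.5-fold, 4 of these 26 were higher in library 2 and 0 in library 1, against 7.27% and 7.03% of all genes that passed the same level. Among them were Saa4, an apolipoprotein of high density lipoprotein (11.6 CPM in library 1 and 134 CPM in library 2), Pon1, an esterase carried on the same particles (87.4 and 134 CPM), and Cebpa. Saa4 and Cebpa also passed 2-fold. The 7 assembly and secretion genes that were tested, among them P4hb, the second subunit of the Mttp complex (461 and 447 CPM), and Sar1b, which serves the vesicles that carry lipoprotein particles (157 and 199.9 CPM), had 0 past 1.5-fold. The apolipoproteins Apoc2 (2066 and 2501 CPM) and Apoc4 (2121 and 2527 CPM), which lie beside Apoc1, were 1.21 and 1.19 times higher in library 2. Hnf4a, a regulator of many apolipoprotein genes, was at 209 and 207 CPM. Saa4, Pon1 and Cebpa reached 100 CPM through library 2 alone, so these counts do not support a direction.

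Outside hepatocytes the members were seen in cells not known to make them. T-like and B-like cells (804 and 709) held 134 and 132 UMIs of the 12 hepatocyte markers per cell, and 109 and 126 UMIs of the 10 members. Apoe alone gave 28.7 and 46.7 UMIs per T-like or B-like cell, and 100% of those cells had one. A level above this free RNA was therefore read as UMIs of a member per UMI of the hepatocyte markers, as a ratio to the same quantity in T-like and B-like cells. The threshold was 2-fold with an interval above 1, in classes of at least 50 cells.

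One member in one class passed. In Kupffer-like cells of library 1 (322 cells), Apoe was at 516 UMIs per 1000 marker UMIs (510.0 to 522), against 215 in T-like and B-like cells, a ratio of 2.40 (2.36 to 2.45). In library 2 (512 cells) it was at 577 (572 to 582) against 353, a ratio of 1.64 (1.61 to 1.66), which passes 1.5-fold and not 2-fold. Over genes of at least 100 CPM in deep hepatocyte-like cells, 15.9% passed 2-fold in Kupffer-like cells of library 1 and 10.4% in library 2, and 27.2% and 19.5% passed 1.5-fold. Taking the free RNA away leaves about 51.1 and 40.5 Apoe UMIs per Kupffer-like cell, of 87.5 and 104 in all. The ratio is lower in library 2 while its free RNA holds more Apoe per marker UMI.

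Apoc1, the neighbour of Apoe, had ratios of 1.43 (1.40 to 1.46) and 1.29 (1.27 to 1.32) in Kupffer-like cells, or 12.4 and 9.21 UMIs per cell above free RNA. Apoa4, at 64 and 296 UMIs in all, was at 1.25 (0.897 to 1.72) and 1.32 (1.11 to 1.58), which overlaps the Apoc1 interval in both libraries. Apoa1, Apoa2 and Apoc3 had ratios between 0.8002 and 0.895 in these cells. Apob was at 1.14 (1.05 to 1.23) and 0.988 (0.924 to 1.06). Mttp, at 43 and 89 UMIs in all, was at 1.14 (0.766 to 1.69) and 1.05 (0.773 to 1.43), so the depth leaves room for a level on either side of free RNA.

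**Figure D3:**
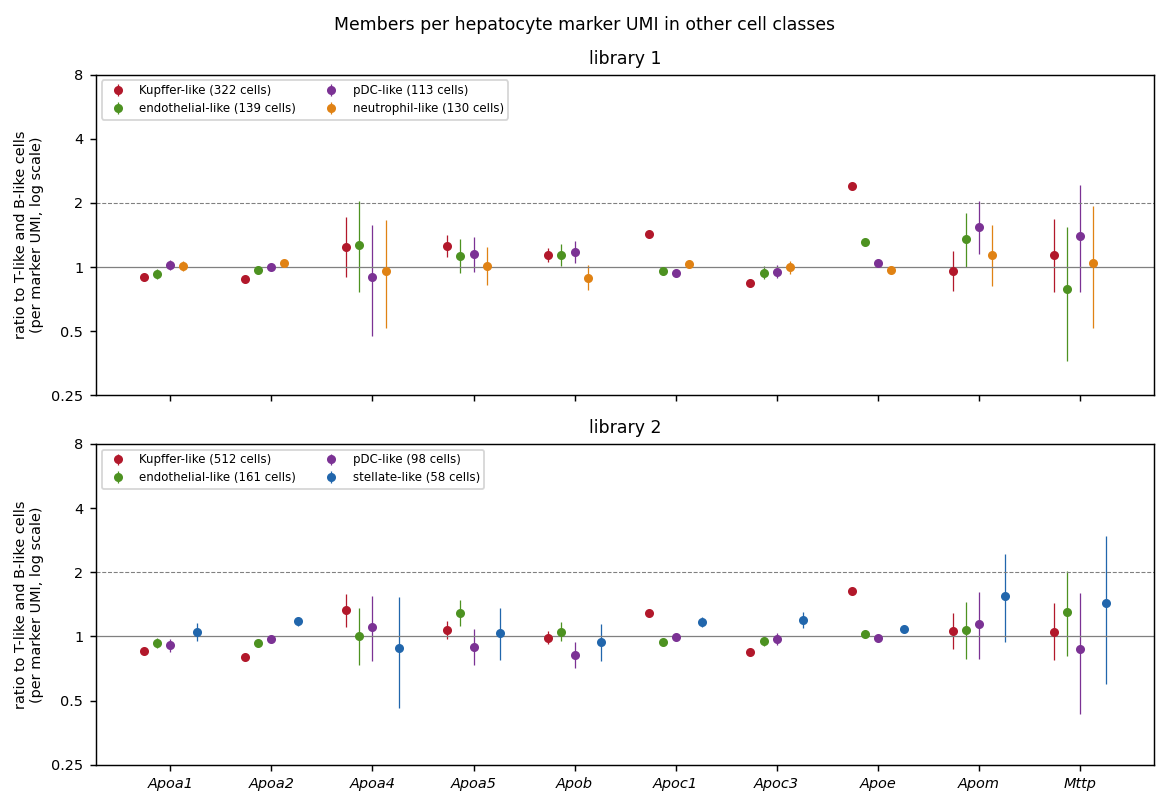
Ratio of UMIs per hepatocyte marker UMI in each cell class to that in T-like and B-like cells (vertical axis, log scale) for the 10 members (horizontal axis) in library 1 (top) and library 2 (bottom), with 95% counting intervals; the grey line marks free RNA and the dashed line 2-fold. Only classes of at least 50 cells are drawn. Among them, Apoe in Kupffer-like cells is the highest point in both panels, at 2.40 and 1.64.

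The Apoe ratio varied among Kupffer-like cells. The median cell had 390 Apoe UMIs per 1000 marker UMIs in library 1 and 554 in library 2, against 219 and 350 in T-like and B-like cells, and 64.9% and 56.1% of Kupffer-like cells lay above the level that 5.10% and 5.08% of T-like and B-like cells exceeded. In Kupffer-like cells of at least 5000 UMIs the ratio was 2.59 and 1.73, and below 5000 UMIs it was 1.51 and 1.28. The few cells without a UMI of Clec4f, a gene particular to Kupffer cells among macrophages, had ratios of 3.43 (26 cells) and 2.84 (30 cells) for Apoe and 0.993 and 1.02 for Apoc1. Their median cell had 329 and 665 Apoe UMIs per 1000 marker UMIs, against 394 and 554 in cells with a Clec4f UMI. In both libraries their ratio thus came from cells with more UMIs or more Apoe than the median cell. They were also shallower, with a median of 2940 and 2383 UMIs against 9018 and 6662. Whether they lack Clec4f or it was missed at that depth was not tested. Cells with a Clec4f UMI had 2.34 and 1.59 for Apoe and 1.45 and 1.30 for Apoc1. Kupffer-like cells held 170 and 180 hepatocyte marker UMIs per cell, and deep hepatocyte-like cells had an Apoe ratio of 0.569 and 0.494.

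**Figure D4:**
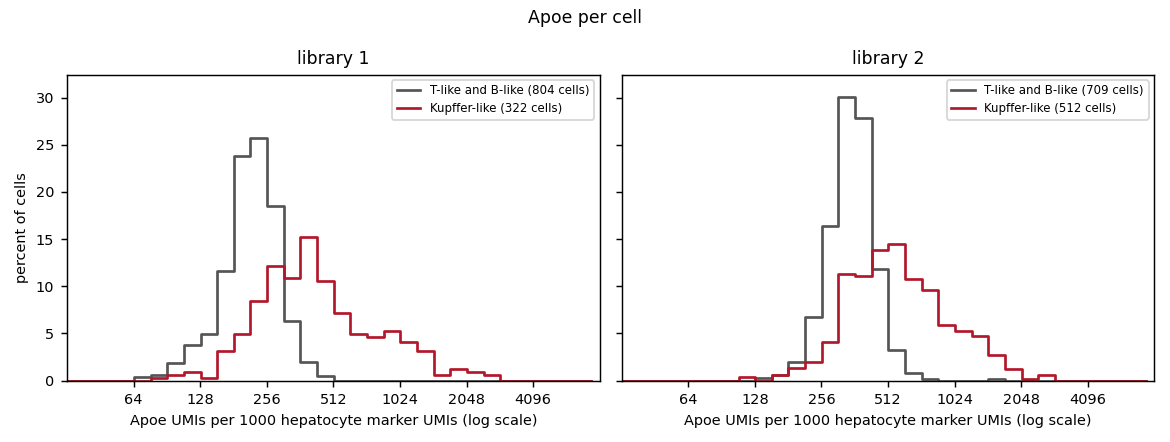
Percent of cells (vertical axis) by Apoe UMIs per 1000 hepatocyte marker UMIs (horizontal axis, log scale) for T-like and B-like cells (grey) and Kupffer-like cells (red) in library 1 (left) and library 2 (right). Kupffer-like cells reach higher values, with medians of 390 and 554 against 219 and 350, and the curves overlap.

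In the other classes of at least 50 cells, 0 of the 10 members passed 2-fold: endothelial-like, plasmacytoid dendritic-like (pDC-like) and neutrophil-like cells in library 1, and endothelial-like, plasmacytoid dendritic-like and stellate-like cells in library 2. The share of genes that did was 8.42%, 9.15% and 2.63% in these classes of library 1 and 6.5%, 6.96% and 2.29% in those of library 2. The highest value was 1.55 for Apom, in plasmacytoid dendritic-like cells of library 1 (62 UMIs, interval 1.155 to 2.051) and in stellate-like cells of library 2 (21 UMIs, interval 0.942 to 2.44). The first passes 1.5-fold, as 21.9% of genes did in that class, and the second interval includes 1. Endothelial-like cells had 1.30 for Apoe in library 1 (1.26 to 1.34) and 1.03 in library 2 (1.00 to 1.05). Cholangiocyte-like cells were too few for the comparison (23 and 16), and their Apoe ratio was 2.07 (1.98 to 2.15) and 2.13 (2.04 to 2.23). Their Apoc1 ratio was 0.722 and 0.897.

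Of the 54 related genes, 18 reached 100 CPM in Kupffer-like cells of both libraries, and 10 of these were at least 2-fold above T-like and B-like cells in both, against 35.6% of all genes at that level. Lpl, lipoprotein lipase, was at 928 and 970 CPM there and at 23.7 and 11.97 CPM in T-like and B-like cells. Pltp, the phospholipid transfer protein, was at 685 and 787 CPM against 9.01 and 21.4 CPM. Abca1, which exports cholesterol to Apoa1 and Apoe, was at 405 and 676 CPM against 44.1 and 43.6 CPM. Apobec1, the enzyme that edits Apob mRNA, was at 399 and 361 CPM against 23.0 and 21.9 CPM, and was at 11.7 and 8.31 CPM in deep hepatocyte-like cells. Cebpa was at 136 and 168 CPM in Kupffer-like cells, against 4.03 and 19.7 CPM in T-like and B-like cells.

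Deep hepatocyte-like cells and free RNA did not hold the members in the same proportions. Per hepatocyte marker UMI, deep cells had less Apoe than free RNA, at 0.569 (0.561 to 0.577) in library 1 and 0.494 (0.488 to 0.4999) in library 2, less Apoa1, at 0.775 and 0.728, and less Apoa2, at 0.918 and 0.704. Apoa5 was at 1.36 and 1.09, Apoc1 at 1.19 and 1.07, Apoc3 at 1.18 and 1.17, and Apom at 1.10 and 1.05 with intervals that include 1. Apoa4 was higher in deep cells, at 1.53 (1.25 to 1.88) and 1.55 (1.35 to 1.78). Apob was at 1.43 (1.362 to 1.498) in library 1 and 0.946 (0.9005 to 0.9936) in library 2, and Mttp at 1.58 (1.25 to 2.02) and 0.983 (0.786 to 1.24). Past 1.5-fold, Apoa4 and Mttp were higher in library 1 and Apoa4 in library 2, against 14.4% and 17.1% of the genes whose CPM in deep cells was at least 1.5 times that in T-like and B-like cells, and Apoe was lower in both, against 29% and 30.1%. In hepatocyte-like cells of 500 to 1000 UMIs the ratios of the 10 members to free RNA were between 0.874 and 1.27 in library 1 and between 0.872 and 1.32 in library 2.

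Along the liver lobule, deep cells were ordered by the balance of periportal and pericentral markers that are not members, and the 25% of cells at each end were compared (159 against 159 cells in library 1, 127 against 127 in library 2). Apoa4 was higher at the periportal end, at 182 against 73.9 CPM in library 1, a ratio of 2.46 (2.09 to 2.89), and at 489 against 206 CPM in library 2, a ratio of 2.37 (2.08 to 2.71). In library 1, 1 of 10 members passed 1.5-fold, against 6.04% of genes, and in library 2, 3 of 10, against 16.4%. The others in library 2 were Apoa5, at 1189 against 748 CPM (1.59, interval 1.48 to 1.71), and Apob, at 2235 against 1443 CPM (1.55, interval 1.47 to 1.63). In library 1 Apoa5 was at 1.32 and Apob at 1.18. Apom was at 1.47 (1.32 to 1.64) in library 1 and 1.17 (1.02 to 1.35) in library 2, and Mttp at 1.10 (0.938 to 1.30) and 1.06 (0.846 to 1.32), where both intervals include 1.

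Apoc1 was nearly even across the lobule, at 0.982 and 0.976, as was Apoa2, at 0.990 and 0.911. Apoc3 was at 1.27 and 1.28 and Apoa1 at 1.36 and 1.12. Apoe was at 1.31 (1.29 to 1.33) in library 1 and 0.929 (0.915 to 0.944) in library 2. Both ends differed in depth: the median was 11876 UMIs at the pericentral and 29817 at the periportal end of library 1, and 7829 and 16836 in library 2. Alb, a marker that is not a member, was also 1.33 and 1.61 times higher at the periportal end. The part of depth in these ratios was not tested.

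**Figure D5:**
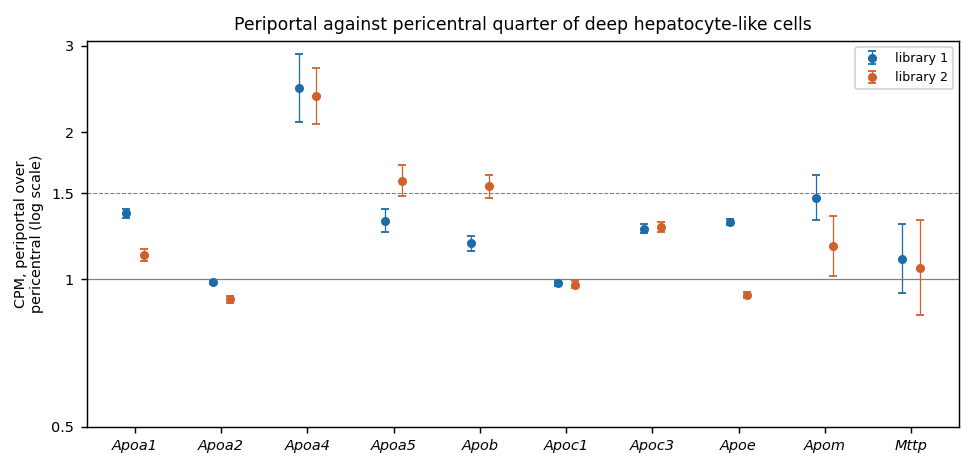
CPM at the periportal over the pericentral end of deep hepatocyte-like cells (vertical axis, log scale) for the 10 members in library 1 (blue) and library 2 (orange), with 95% counting intervals; the dashed line marks 1.5-fold. Apoa4 lies above 2 in both libraries, and Apoe lies above 1 in library 1 and below 1 in library 2.

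Genes whose pattern was most like that of a member were found by Pearson's r of log2(CPM + 10) over 14 sums of a cell class in a library, among 4527 genes. These sums share free RNA and library, so hepatocyte genes follow each other, and r is a description. The closest gene was Hamp for Apoa1 (r = 0.99), Ambp for Apoa2 (0.99), Pemt for Apoa4 (0.97), Gc for Apoa5 (0.99), Abcb11 for Apob (0.99), Alb for Apoc1 (0.98), Fgb for Apoc3 (0.99), Slc27a5 for Apom (0.99) and F2 for Mttp (0.98). Apoe had the loosest partner, Scd1 (0.93), followed by Hsd3b7 (0.92) and C4b (0.92).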

How the data were processed

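The authors made counts of UMIs per gene and barcode with Cell Ranger 7.1.0, which the submitters' processing notes list with STAR 2.7.2a, bcl2fastq 2.20.0 and the build mm10; the deposited counts are whole numbers in 1 matrix of 32316 barcodes (60048646 and 52355243 UMIs). The sources used here state no cell calling, ambient correction or counting of introns.

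Barcodes with at least 500 UMIs, 200 genes and at most 25% mitochondrial UMIs were kept. A class other than hepatocyte needed at least 3 of its markers, 2 more than any other list, and own marker UMIs of at least 3% of the hepatocyte marker UMIs. Hepatocyte-like cells needed at least 6 of 12 markers and 6% of UMIs from them, and no other list with 2 or more markers at 1% or more of the hepatocyte marker UMIs, which by itself keeps other markers low in them. These limits were set after the data were seen. The lead over other lists removed barcodes with markers of several types; no doublet caller was run, and doublets with hepatocytes remain. The members and lists were chosen with earlier results of these data known. The 10 members are all named, and related genes are named where they passed a fold or a result turns on them, except 1 gene that is not reported here. UMIs were summed over cells, with exact Poisson intervals, Clopper-Pearson shares and conditional binomial intervals of ratios, in Python 3.11.15 with numpy 2.4.6 and scipy 1.17.1. The ratio and its calls were tested on simulated sums with counting error only, so that test does not cover spread among cells or animals. Gene positions were matched by ID in GENCODE M21 on GRCm38, the same assembly as mm10, for 99.6% of IDs. Leiden clusters (scanpy 1.11.5, igraph 0.11.9) were an alternative to the gates.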

Additional observations from a re-analysis of the deposited data

Results flagged for a closer look

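Barcodes over the limit of 25% mitochondrial UMIs that passed the hepatocyte gate (3895 in library 1 and 6414 in library 2) were outside the comparisons above. Per hepatocyte marker UMI, Apob was there at 1.76 and 1.65 times its level in T-like and B-like cells, and Apoe at 1.28 and 1.45 times. Apoc1 was at 0.811 and 0.754 times in the same barcodes. Apoe was the member whose direction across the lobule differed between the libraries: the periportal end of deep hepatocyte-like cells was at 1.31 times the pericentral end in library 1 and at 0.929 times in library 2. That difference was not tested, since each library is 1 sample.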

How the results depend on the processing

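No paired analysis was possible because each group has 1 sample and neither library is tied to a group. The summed level of the members in deep cells, 70478 and 75809 CPM, was 66871 and 74093 CPM without a mitochondrial limit, 67637 and 73692 CPM at a limit of 50%, 62128 and 92810 CPM at a limit of 10% (154 and 160 cells), 83925 and 88578 CPM over UMIs that are not mitochondrial, 65891 and 76447 CPM as a mean over cells, 65760 and 67485 CPM with free RNA subtracted, and 70074 and 75498 CPM with Leiden clusters. The count of members past 2-fold between the libraries rose from 1 to 2 without a mitochondrial limit (Apoa4 and Apoe), to 3 at a limit of 10% and to 3 at 1.5-fold (Apoa4, Apoc3 and Apoe both times). Over 9 alternatives, 1 of them added after seeing the data, Apoa4 was 2.60 to 4.67 times, Apoc3 1.30 to 2.26 times and Apoe 1.43 to 2.16 times higher in library 2. In Kupffer-like cells 2 members passed in library 1 against B-like cells alone (Apoa4 and Apoe), and 1 member passed in library 2 by UMIs per cell or at 1.5-fold (Apoe). In other classes of library 1, 1 member passed against B-like cells alone (Apoa4) and 1 at 1.5-fold (Apom). Shares of cells with a UMI after thinning to 1000 UMIs followed another rule: an interval above that of T-like and B-like cells, with no fold. Nearly all cells had an Apoe UMI there. By that rule 0 members were above in Kupffer-like cells of library 1 and 1 in library 2 (Apoc1), and 3 and 2 in other classes. It makes no allowance for free RNA. In library 1, hepatocyte markers gave 4.41% of UMIs in neutrophil-like cells and 2.55% in T-like and B-like cells. The Apoe ratio in Kupffer-like cells was between 2.13 and 3.05 in library 1 and between 1.49 and 2.23 in library 2 over 13 alternatives, 1 of them (cells of at least 5000 UMIs) added after seeing the data. Across the lobule, Apoa4 was 1.86 to 2.46 times higher in library 1 and 2.14 to 2.37 times in library 2, and no alternative moved the count of members past 1.5-fold by over 1.5 times. Of the summary values, 59 kept their value or count and 26 moved, and of the values of single members 81 kept theirs and 183 moved. The causes of the moves were not tested. Depth limits Mttp and Apoa4 outside hepatocytes, where a class holds few of their UMIs.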
